A study of Mus musculus with 2 samples.

Results

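The genes examined here encode the 3 transforming growth factor-β (TGF-β) ligands (Tgfb1, Tgfb2, Tgfb3), the 3 TGF-β receptors (Tgfbr1, Tgfbr2, Tgfbr3) and the 4 latent TGF-β binding proteins or LTBPs (Ltbp1, Ltbp2, Ltbp3, Ltbp4). They were chosen by symbol, and all 10 were found among the 24346 gene symbols of the series. The series holds RNA-seq of whole mouse omentum, the abdominal fat sheet that carries milky spots, with 1 library per genotype taken 5 days after diphtheria toxin (DT). One library was from WT mice. The other was from Postn-DTR mice, which are heterozygous for a DT receptor cassette placed in the first coding exon of Postn in C57BL/6 zygotes. Both genotypes received DT, so the WT library, from littermates where feasible, is the toxin control, and an omentum without toxin was not analysed here. The age and sex of the mice and whether RNA was pooled were not given in the sources used here. The Postn promoter marks Aldh1a2+ fibroblastic reticular cells (FRCs) in the omentum. It is also used by mesenchymal cells of other organs, so the ablation is not limited to the omentum. Within the omentum, the paper also reports a partial loss of a population of conventional FRCs after DT.

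TGF-β is secreted in a latent form. Its own propeptide stays wrapped around the cytokine, and in many tissues an LTBP is linked to this complex and anchors it to fibrillin microfibrils of the matrix. Release by integrins, thrombospondin-1 or proteases lets the ligand bind the type II receptor TGFBR2, which recruits and phosphorylates the type I receptor TGFBR1, and the signal passes to SMAD2 and SMAD3. The co-receptor betaglycan, encoded by Tgfbr3, presents ligand and is needed most for TGF-β2. In fibroblasts the pathway is known for driving matrix production, and in lymphocytes for restraint and for the making of regulatory T cells.

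Levels are given as FPKM, a fragment number per length of transcript and per size of the library, which lets levels of different genes be set beside each other. The change of a gene is its log2(FPKM + 1) in Postn-DTR less its WT value, and lower or higher below means by at least 2-fold wherever genes are counted. With 1 library per genotype there was no spread between replicates and no test, and none of the differences below has a replicate check. From the steps of low FPKM values, the denominators behind the FPKM were estimated at 23590000 fragments in WT and 24040000 in Postn-DTR. Intervals of a ratio given below are exact 95% binomial intervals on fragments estimated from these depths and the shortest coding transcript. They cover counting error only. The library labelled Postn-DTR had a Postn FPKM of 16.2, against 58.3 in the WT library. Pancreatic acinar genes summed to an FPKM of 12403 in WT against 20.4 in Postn-DTR, and the FPKM of all genes to 542190 and 671882. Giving both libraries the same total after removal of the acinar genes shifted the all-gene median by -0.30, so a difference this small cannot be told apart from scaling.

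All 10 genes were expressed, with FPKM from 5.23 to 141, and all passed the minimum mean FPKM of 1 set for the comparison. Of the 10, 1 was at least 2-fold lower in Postn-DTR (Ltbp2), 0 were at least 2-fold higher, and 9 stayed within 2-fold. Over the 13127 genes compared, 3.12% were at least 2-fold lower and 3.88% at least 2-fold higher. At a threshold of 1.5-fold the counts were again 1 and 0, beside 8.84% and 9.86% of all genes. The median change of the 10 genes was -0.02 and that of all genes was 0.02. By sign alone, 5 genes were lower and 5 higher, beside 48.1% of all genes compared that were lower. By role, 3 of 4 LTBPs and 2 of 3 ligands were lower and 3 of 3 receptors higher. At equal totals 4 of 4 LTBPs and 3 of 3 ligands were lower and 2 of 3 receptors higher. The changes of Tgfb1, Tgfb2, Tgfb3, Tgfbr2 and Ltbp1 were smaller than the shift between scalings. Those of Ltbp4 (-0.30) and Tgfbr1 (0.31) were about the size of that shift, and at equal totals they became -0.64 and 0.0058. No pattern by role was therefore read from these signs.

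**Figure D1:**
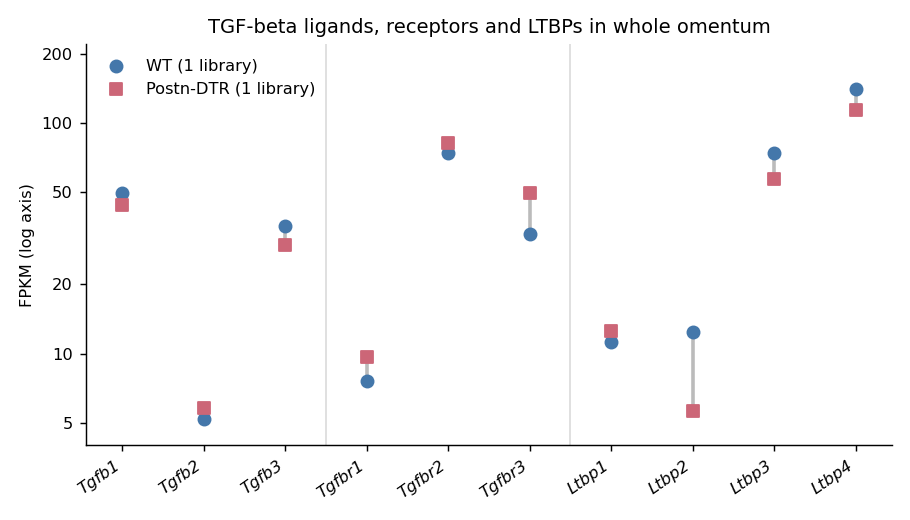
FPKM (log axis) of each gene in the WT library (blue circles) and the Postn-DTR library (red squares), with grey lines joining the values of a gene and vertical lines parting ligands, receptors and LTBPs. Ltbp2 shows the widest gap, from 12.4 to 5.63, followed by Tgfbr3, from 32.9 to 49.8, and the order of the ligands is the same in both libraries.

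The ligands kept their order of level. Tgfb1 (ENSMUSG00000002603, chromosome 7, 25687002 to 25705077 on the plus strand), the isoform made by most leukocytes and platelets, had an FPKM of 49.6 in WT against 44.2 in Postn-DTR. The ratio was 0.891 (0.840 to 0.946), a change of -0.16, and 31.6% of all genes compared had a more negative change. Tgfb3 (chromosome 12, 86056745 to 86079041 on the minus strand), an isoform of mesenchymal tissues known for its part in palate fusion, was at 35.8 in WT against 29.6 in Postn-DTR. Its ratio was 0.826 (0.781 to 0.874), a change of -0.27. Tgfb2 (chromosome 1, 186622792 to 186705989 on the minus strand), the isoform that depends most on betaglycan, was the least abundant. It had an FPKM of 5.23 and 5.81, with a ratio of 1.11 and an interval from 0.969 to 1.27 that included no difference. For the 2 more abundant ligands the differences were thus -10.9% and -17.4%, beyond counting error but smaller than the shift between scalings. In both libraries Tgfb1 was above Tgfb3 and Tgfb3 above Tgfb2.

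The receptors were all higher in Postn-DTR as deposited, by unequal amounts, and Tgfbr2 was lower at equal totals. Tgfbr3 (ENSMUSG00000029287, chromosome 5, 107106570 to 107289629 on the minus strand), which encodes betaglycan, a proteoglycan co-receptor that also binds inhibin, had an FPKM of 32.9 in WT against 49.8 in Postn-DTR. This was a ratio of 1.51 (1.46 to 1.57) and a change of 0.58, and 10.01% of all genes had a more positive change. On the log2(FPKM + 1) scale it lay just under the 1.5-fold threshold. Tgfbr1 (chromosome 4, 47353222 to 47414931 on the plus strand), the type I receptor kinase ALK5, went from 7.62 to 9.70, a ratio of 1.27 (1.08 to 1.5) and a change of 0.31. Tgfbr2 (chromosome 9, 116084293 to 116175360 on the minus strand), the type II receptor that binds ligand first, was the most abundant receptor at 73.9 and 81.9, a change of 0.15. Tgfbr2 stood 9.70-fold above Tgfbr1 in WT and 8.44-fold above it in Postn-DTR, so the type I receptor was the scarcest of the 3 in both libraries. Under equal totals Tgfbr3 was still higher (0.25), Tgfbr1 had a change of 0.0058 and Tgfbr2 turned to -0.19.

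Among the LTBPs the members differed most. Ltbp2 (ENSMUSG00000002020, chromosome 12, 84783212 to 84876532 on the minus strand) encodes the LTBP that does not bind latent TGF-β and sits on microfibrils as an elastic-fibre protein. Its FPKM was 12.4 in WT against 5.63 in Postn-DTR, or 2.2-fold lower, with a ratio of 0.455 (0.419 to 0.494). The change was -1.01, and 3.05% of all genes compared had a more negative one. It rested on at least 1824 estimated fragments in WT and 849 in Postn-DTR. The call was close to its threshold: it was kept under the scaling alternatives, from -1.30 to -1.03, and was lost with a pseudocount of 5, where the change was -0.71. An antisense gene, D030025P21Rik, shares 9.34% of the annotated exon bases of Ltbp2, and its own FPKM was 0.675 and 0.431.

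Ltbp4 (chromosome 7, 27305136 to 27337692 on the minus strand), which preferentially carries TGF-β1 and is needed for elastic fibre assembly, was the most abundant of all 10 genes. It had an FPKM of 141 in WT against 114 in Postn-DTR, a ratio of 0.811 (0.788 to 0.834) and a change of -0.30. Ltbp3 (chromosome 19, 5740904 to 5758532 on the plus strand), which helps secrete latent TGF-β in bone and vessels, was at 74.4 and 56.9, a change of -0.38. Ltbp1 (chromosome 17, 75005568 to 75392512 on the plus strand), the archetypal carrier of the latent complex, was at 11.2 and 12.5, a change of 0.14 that turned to -0.17 at equal totals. In WT, Ltbp1 and Ltbp2 were at similar levels, and in Postn-DTR Ltbp1 was 2.22-fold above Ltbp2.

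The stretches before the start sites of Ltbp2 and Ltbp1 are shown because these genes had similar WT levels and moved apart. They are taken from RefSeq (GRCm38.p6), 5′ to 3′ on the strand of the gene, and end at the outermost RefSeq start. The Ltbp2 stretch is chr12:84876559-84876741 (minus strand, 183 bases) and the Ltbp1 stretch is chr17:75005279-75005479 (plus strand, 201 bases). Both end upstream of the gene positions given above, which come from another annotation (GENCODE M21). Bases just after the listed start were found in a GENCODE transcript of the gene for Ltbp2 and in none for Ltbp1. Capitals mark matches to motifs searched on both strands: the SMAD box CAGAC, the AP-1 site TGANTCA, the cyclic AMP response element TGACGTCA, the GC box GGGCGG and the TATA box TATAAA.
Ltbp2: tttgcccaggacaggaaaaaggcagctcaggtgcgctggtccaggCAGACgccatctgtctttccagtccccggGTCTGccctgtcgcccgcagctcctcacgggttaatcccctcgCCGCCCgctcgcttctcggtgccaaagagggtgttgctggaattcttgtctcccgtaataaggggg
Ltbp1: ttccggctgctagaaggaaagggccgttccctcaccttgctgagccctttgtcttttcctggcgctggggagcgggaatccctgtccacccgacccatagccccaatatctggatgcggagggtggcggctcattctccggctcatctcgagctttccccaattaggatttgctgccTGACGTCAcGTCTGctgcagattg
The Ltbp2 stretch held 2 SMAD boxes and 1 GC box, and the Ltbp1 stretch held 1 SMAD box and 1 cyclic AMP response element, which lie 1 base apart without overlap. Windows of 250 bases before each listed start numbered 12 for the 8 members that had any. Some windows of Ltbp4 overlap each other and were counted separately. A SMAD box was found in 7 of the 12 windows (6 of the 8 members) and in 42.2% of all 32851 windows. A GC box was found in 6 of the 12 (4 of the 8 members, with the overlapping Ltbp4 windows among the 6) and in 32.7% of all windows. A TATA box was found in 1 (Tgfb2) and in 12.4%, a cyclic AMP response element in 1 (Ltbp1) and in 1.55%, and an AP-1 site in 0 and in 6.75%. A match of letters is a description of the window and not a binding site.

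Shares within a library do not depend on how the libraries are scaled. Of the summed ligand FPKM, Tgfb1 made up 54.8% in WT against 55.6% in Postn-DTR, Tgfb3 39.5% and 37.1%, and Tgfb2 5.77% and 7.30%. Of the summed receptor FPKM, Tgfbr3 took 28.8% in WT against 35.2% in Postn-DTR, while Tgfbr2 went from 64.6% to 57.9% and Tgfbr1 was at 6.65% and 6.87%. Among LTBPs, Ltbp4 held 59.0% and 60.4%, Ltbp3 31.1% and 30.0%, Ltbp1 4.70% and 6.60%, and Ltbp2 5.17% and 2.97%. The leading member of each group was the same in both libraries. In percentage points Tgfbr2 (-6.64) and Tgfbr3 (6.43) moved most, and as a ratio of shares Ltbp2 (0.575) and Ltbp1 (1.40) did. Across roles, the summed receptor FPKM was 1.26 times the summed ligand FPKM in WT and 1.78 times in Postn-DTR, and the summed LTBP FPKM was 2.64 and 2.38 times the ligand sum. These ratios compare single libraries, and whether they differ between the genotypes could not be tested.

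**Figure D2:**
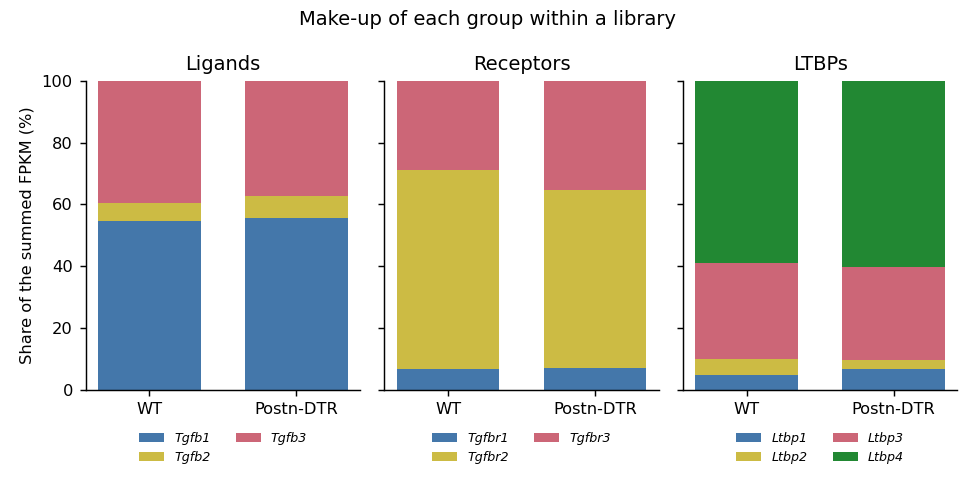
Share (%) of each gene in the summed FPKM of the ligands, the receptors and the LTBPs, in the WT and the Postn-DTR library (1 bar per library). The Tgfbr3 share goes from 28.8% to 35.2% and the Ltbp2 share from 5.17% to 2.97%, while Tgfb1 stays near 55% of the ligands (54.8% and 55.6%).

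Directions depended on scaling for 3 of the 10 genes. Tgfb2, Tgfbr2 and Ltbp1 had changes of 0.13, 0.15 and 0.14 as deposited and -0.16, -0.19 and -0.17 at equal totals. The other 7 kept their sign under all 5 settings that change a value. Tgfb1, Tgfb3, Ltbp2, Ltbp3 and Ltbp4 were lower throughout, and Tgfbr1 and Tgfbr3 higher, although Tgfbr1 was close to 0 at equal totals.

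**Figure D3:**
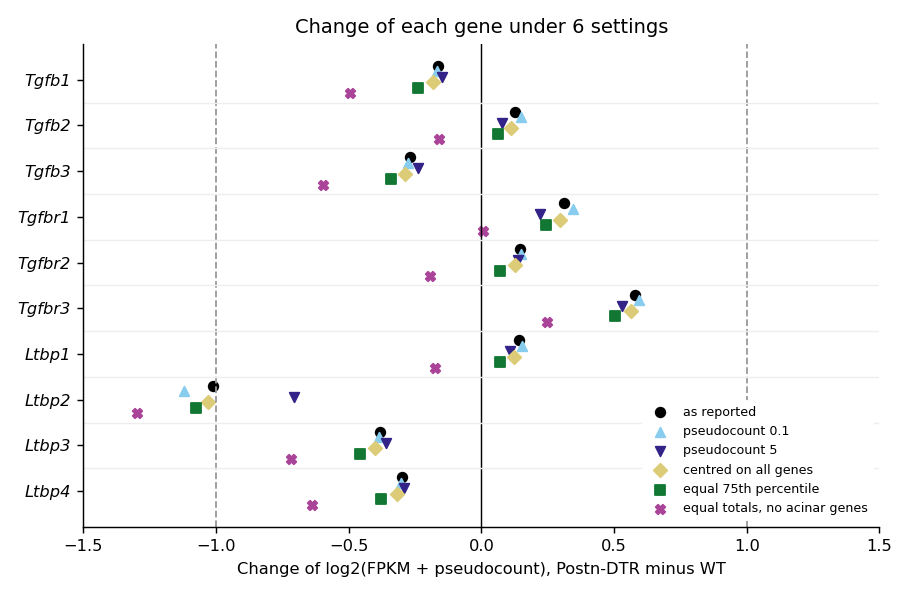
Log2 change from WT to Postn-DTR (horizontal axis, log2 of FPKM plus a pseudocount) for each gene as reported and under 5 other settings (marker shapes), with dashed lines at 2-fold. Ltbp2 is the gene beyond the 2-fold line, except with a pseudocount of 5 (-0.71), and equal totals (crosses) shift every gene to the left.

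The rest of the pathway was read from 8 lists holding 102 further genes, of which 83 passed the expression minimum. At least 2-fold lower were 2 (2.41%) and at least 2-fold higher were 6 (7.23%), beside the 3.12% and 3.88% of all genes. Lists share genes, and each gene was counted here 1 time. Factors that release latent TGF-β or hold it on cells numbered 11 compared genes, of which 1 was higher and 0 lower, with a median change of 0.33 that turned to -0.013 at equal totals. The gene past 2-fold was Thbs1, encoding thrombospondin-1, a matricellular protein that can activate latent TGF-β. It had an FPKM of 21.8 in WT against 190 in Postn-DTR, 8.70-fold higher with a change of 3.06. Itgb1, the integrin β1 chain, was at 142 and 178 and Mmp14, a membrane-bound matrix metalloproteinase, at 78.2 and 98.6, and both changes turned to about 0 at equal totals (-0.013 and -0.0090). Of the integrin chains best known for TGF-β activation, named after their values were seen, Itgb6 was listed at 0 in both libraries and Itgb8 was at 0.0890 and 0.0430, under the expression minimum.

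Microfibril and elastic-fibre partners of LTBPs had 0 of 13 genes past 2-fold in either direction, with a median of 0.10 that turned to -0.24 at equal totals. With a pseudocount of 0.1, 1 was higher, Adamtsl2 (1.88 and 4.05, named after its values were seen). Fn1, encoding fibronectin, to which LTBP1 is anchored, was at 459 and 837, and Fbln2, encoding fibulin-2, at 155 and 127. Fbn1, encoding fibrillin-1 and named after its value was seen, was at 38.1 in WT against 24.6 in Postn-DTR, a change of -0.61. By sign, 6 of the 13 genes were lower and 7 higher. Among the higher were Mfap2 (a change of 0.59) and Mfap5 (0.48), also named after their values were seen. Secreted antagonists and binders had 1 of 9 genes lower and 0 higher. Fmod, encoding fibromodulin, a small proteoglycan that binds TGF-β, was at 66.4 and 31.8, a change of -1.04. The most abundant binders, Dcn (1875 and 2152) and Bgn (466 and 522), encode decorin and biglycan and stayed within 2-fold, and their positive changes turned negative at equal totals.

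Among the related ligands 1 of 10 was higher and 0 lower. That gene was Gdf15, a stress-induced cytokine, at 1.12 and 4.0, whose change of 1.24 fell under 2-fold at equal totals (0.97), whereas Gdf10 (36.5 and 24.8) and Bmp4 (10.3 and 15.8), the most abundant of the list in WT, stayed within 2-fold. With a pseudocount of 0.1, 1 related ligand was lower, Gdf11 (1.79 and 0.567, named after its values were seen). Related receptors had 1 of 9 higher and 0 lower, and 1 lower at equal totals or with a pseudocount of 0.1, Acvr1c (7.60 and 3.63, named after its values were seen). Amhr2, the anti-Müllerian hormone receptor, was at 2.07 and 9.06, and Eng and Acvrl1, the endothelial co-receptor and type I receptor for BMP9, were at 75.2 and 76.2 and at 31.0 and 23.6. None of the 7 SMAD genes and none of the 11 intracellular brakes compared passed 2-fold, with medians of 0.07 and -0.11 (at equal totals -0.21 and -0.34). Smad4, the SMAD shared by all branches, was at 17.0 and 20.7, and Smad3, a receptor-activated SMAD, at 14.5 and 19.1. Ski, a SMAD co-repressor, was at 41.1 and 38.0, and Ppm1a, a SMAD phosphatase, at 36.6 and 48.6. Smad7, the inhibitory SMAD that TGF-β itself induces, was named after its value was seen and had an FPKM of 5.28 and 3.63, a change of -0.44.

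**Figure D4:**
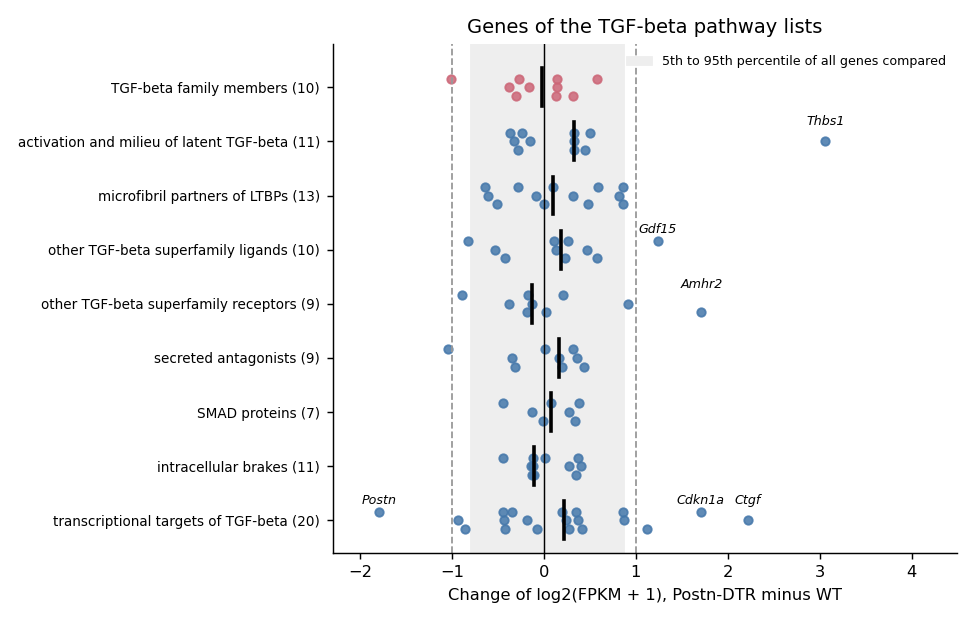
Log2 change from WT to Postn-DTR (horizontal axis, log2 of FPKM plus 1) of each compared gene (points) in the 10 TGF-β genes (red) and 8 pathway lists (blue), with the number compared in brackets, black bars at list medians, dashed lines at 2-fold and grey shading from the 5th to the 95th percentile of all genes (-0.79 to 0.87). Ltbp2 lies at -1.01 in the top row, and Thbs1 (3.06) and Ctgf (2.22) lie farthest to the right.

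Genes that TGF-β is known to induce did not share a direction. Of 20 compared, 3 were at least 2-fold higher, 1 was at least 2-fold lower and 16 stayed within 2-fold, with a median change of 0.22 that turned to -0.12 at equal totals. Ctgf, encoding connective tissue growth factor, went from 18.2 to 88.2, Cdkn1a, the cell cycle inhibitor p21, from 33.7 to 112, and Bhlhe40, a transcription factor, from 21.1 to 47.1, a change of 1.12 that fell under 2-fold at equal totals (0.79). Postn, the gene lower by 2-fold or more, carries the receptor cassette on 1 allele and marks the ablated cells. The most abundant targets were Col3a1, encoding a fibrillar collagen, at 1264 and 699, a change of -0.85, and Vim, encoding vimentin, at 883 and 836.

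In whole tissue, fewer cells of a type and less RNA per cell cannot be told apart, and markers of several cell types moved between the same libraries. The counts below stand beside 3.12% of all genes at least 2-fold lower and 3.88% at least 2-fold higher. The fibroblast list had 1 of 7 genes at least 2-fold lower (Dpt) and a summed FPKM of 3061 in WT against 3011 in Postn-DTR. Most of that sum was Dcn (1875 and 2152), and the list median was -0.19, with Dpt at 237 and 67.3, Col1a1 at 422 and 313, Col1a2 at 407 and 357 and Lum at 48.2 and 35.1. The smooth muscle and pericyte list had 2 of 7 lower, Rgs5 (30.6 and 2.56) and Pdgfrb (41.3 and 17.3), with a sum of 336 and 308. Most of that sum was Tagln (128 and 151) and Acta2 (94.6 and 109), and the list median was -0.78. By sign, 4 genes of this list were lower, Myh11 (32.2 and 18.3) and Cspg4 (7.60 and 3.60) among them. The 3 higher by sign were Tagln, Acta2 and Cnn1 (2.31 and 5.58). Of the list of Aldh1a2+ FRC markers, 1 of 6 was lower and 1 higher, with a sum of 215 and 163. The lower gene was Postn itself (58.3 and 16.2) and the higher gene Ptx3 (1.40 and 6.30). The others compared stayed within 2-fold: Aldh1a2 (85.5 and 63.3), Ace (46.5 and 56.9), Adm (14.2 and 13.1) and Tek (8.96 and 7.61). Macrophage markers had 4 of 7 higher and a sum of 2903 and 4846, and T cell markers 4 of 6 lower and a sum of 79.2 and 35.01. B cell markers summed to 451 and 329 with 1 of 5 lower, neutrophil markers to 337 and 609 with 2 of 5 higher and 1 lower, and regulatory T cell markers to 8.65 and 13.3 with 1 of 3 higher. That gene was Ctla4 (2.63 and 9.78), while Foxp3 was at 1.70 and 0.967 and Il2ra at 3.43 and 1.93, and the list median was -0.46. The platelet list summed to 150 and 286, nearly all of it Pf4 (147 and 281), with Gp6 at 0 in both libraries. Blood endothelial markers had 0 of 6 past 2-fold and a sum of 232 and 223, with Pecam1 at 109 and 110. Their list median was -0.17, with 4 genes lower by sign and 2 higher. Mesothelial markers summed to 468 and 474 with 1 of 5 lower, Lrrn4 (62.7 and 29.2). Most of that sum was Upk3b (212 and 182) and Krt19 (104 and 132), and Msln was at 37.2 and 67.9. Their list median was 0.27, with 2 genes lower by sign and 3 higher. The adipocyte sum of 7029 and 8123 was mostly Fabp4 (4879 and 6519), whereas the list median was -0.59 with 1 of 7 genes at least 2-fold lower, Pparg (59.1 and 27.3), and Adipoq at 955 and 636, Plin1 at 321 and 189 and Lipe at 279 and 139. The part of these cell types in the values of the 10 genes was not tested.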

How the data were processed

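RNA-seq of whole omentum was analysed in 1 WT and 1 Postn-DTR library. The labels name the miRNeasy kit for RNA and the TruSeq stranded mRNA kit for libraries, while the study's methods describe other kits for sorted cells; the strand setting of the quantification was not given in the sources used here. The submitters' processing notes name mm10, TopHat2 2.1.1, Bowtie2 2.2.8, SAMtools 0.1.18 and Cuffdiff 2.2.1, and the annotation was not given in the sources used here. The authors deposited FPKM, 1 value per gene symbol and library, and these were used as deposited. FPKM cannot enter a count test.

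The change was that of log2(FPKM + 1) for genes whose FPKM averaged 1 or more, computed with Python 3.11.15, pandas 2.3.3 and numpy 2.4.6. The pseudocount understates changes of low genes. Of the symbols, 23310 matched GENCODE M21 (GRCm38), which gave positions and lengths. Depth was fitted to low values of genes with 1 annotated transcript: 79.3% of 455 values in WT and 81.3% of 407 in Postn-DTR came within 0.1 of a whole fragment, against 20.3% and 21.7% with lengths shuffled. The scripts were tested on simulated data. The genes and lists were chosen with earlier results of these data known. Named were all 10 genes and, per list, genes past 2-fold (at most 5) and the 2 with the highest WT FPKM. Some genes of the pathway lists are not reported here and were left out of the list counts. Protein sequences were not used here.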

Additional observations from a re-analysis of the deposited data

How the results depend on the processing

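Of the 8 alternatives, 2 ended the call of Ltbp2 and left 0 of the 10 genes at least 2-fold lower: a pseudocount of 5, which shrinks changes of low genes, and a minimum mean FPKM of 10, which Ltbp2 does not reach at a mean of 9.0. No gene was at least 2-fold higher under any of the 8. The median change of the 10 genes, -0.02 as reported, was -0.0091 when 0.1 FPKM was added as the pseudocount, -0.035 when 5 were added, -0.035 after centring on all genes, -0.088 at an equal 75th percentile, -0.34 at equal totals without acinar genes, and -0.16 over the 7 genes left by a minimum mean FPKM of 10. The Tgfb1 share of the ligand sum was 0.82 percentage points higher in Postn-DTR, and 0.70 with 1 FPKM added to each ligand. Over all genes, 55.4% of those past 2-fold were higher, and 28.1% at equal totals. The 410 lower and 509 higher genes became 643 and 642 (pseudocount 0.1), 168 and 287 (pseudocount 5), 173 and 303 (minimum mean FPKM 10), 761 and 297 at equal totals, and 1160 and 1294 at 1.5-fold. TGF-β targets at least 2-fold lower numbered 1 as reported, 2 at pseudocount 0.1, 3 at equal totals and 3 at 1.5-fold, and those higher numbered 3, with 2 at equal totals and with a pseudocount of 5 (without Bhlhe40) and 5 at 1.5-fold. Microfibril partners, with 0 past 2-fold, had 2 lower and 4 higher at 1.5-fold, and 1 at least 2-fold higher with a pseudocount of 0.1. The single calls of Gdf15, Amhr2 and Fmod were lost with a pseudocount of 5, those of Gdf15 and Amhr2 also with a minimum mean FPKM of 10, and that of Gdf15 at equal totals. No paired analysis was possible because each genotype had 1 library. With 1 library each, depth limits little for these genes, and the spread between mice was not measured.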
